A study of Mus musculus with 50 samples.

Results

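Transcripts of 7 genes that write, maintain or remove DNA methylation were followed in mouse microglia, the resident macrophages of the brain. The genes were taken by name from the count table, which holds 48526 genes: Dnmt1 and Uhrf1, Dnmt3a and Dnmt3b, and Tet1, Tet2 and Tet3. Each of the 7 matched 1 row of the table, and each passed the filter on low counts in all 20 comparisons.

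RNA-seq counts came from 50 libraries of microglia sorted from brain by flow cytometry, in 14 groups of 2 to 4 libraries, with 11050277 to 29651179 counts each. Within a group each library has its own number in the labels, read here as a separate animal, and p-values measure the spread between these libraries. Litter and dam are not among the labels used here. Littermates may therefore be counted as separate replicates, and litter was not modelled. All mice were loxP/loxP at Hdac1 and at Hdac2, the genes of a pair of histone deacetylases. Constitutive knockouts had Cx3cr1-Cre and no treatment, and their ages were birth (P0; 3 knockouts), 2 weeks (2) and 6 weeks (3), each with 4 controls. Inducible knockouts had Cx3cr1-CreERT2, and the mothers of this model's knockouts and controls received 3 mg tamoxifen on embryonic day 13 (E13). This model was sampled on embryonic day 16 (E16) with 4 controls and 3 knockouts, at P0 with 3 and 4, and at 2 and 6 weeks with 4 and 4. No control had Cre, so that deletion and the Cre allele itself cannot be told apart. Embryos and newborns were decapitated, whereas older mice were perfused, so age and this handling cannot be told apart either. The Cx3cr1 promoter is active in microglia and in other mononuclear phagocytes.

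Methylation of cytosine at CpG sites is copied onto the new DNA strand after replication by Dnmt1, which Uhrf1 brings to the half-methylated sites it binds. Dnmt3a and Dnmt3b add methyl groups at unmethylated sites. Tet1, Tet2 and Tet3 oxidise 5-methylcytosine, which begins its removal, and use 2-oxoglutarate and iron to do so. DNMT3A and TET2 are known in myeloid cells as genes whose loss lets blood stem cell clones expand. The libraries measure RNA only, not methylation.

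On GRCm38, Dnmt1 (ENSMUSG00000004099.15) lies on chromosome 9 from 20907209 to 20959888 on the minus strand. Uhrf1 (ENSMUSG00000001228.14) lies on chromosome 17 from 56303321 to 56323486 on the plus strand. Dnmt3a (ENSMUSG00000020661.15) lies on chromosome 12 from 3806007 to 3914443 on the plus strand, and 133 of its exon bases also belong to an antisense gene, Dnmt3aos. Dnmt3b (ENSMUSG00000027478.15) lies on chromosome 2 from 153649450 to 153687730 on the plus strand. Tet1 (ENSMUSG00000047146.15) lies on chromosome 10 from 62804570 to 62908996 on the minus strand. Tet2 (ENSMUSG00000040943.12) lies on chromosome 3 from 133463679 to 133545139 on the minus strand and shares 43 exon bases with Gm42567 on the other strand. Tet3 (ENSMUSG00000034832.15) lies on chromosome 6 from 83362373 to 83459084 on the minus strand. The kit does not mark strand, so reads in the shared bases can come from either gene.

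Some libraries stood apart. The library labelled knockout 1 at E16 held 316 CPM of Hdac2 (the count as a share of all counts of its library, scaled to the same total in every library), against 68.6 and 71.4 CPM in the other E16 knockouts and 133 to 165 CPM in the controls. It also held 3160 CPM of 10 summed neuron marker genes, against 383 and 586 CPM in the other E16 knockouts, and 13344 CPM of erythroid markers. The libraries labelled knockout 68 (constitutive P0) and knockout 380 (constitutive 6 weeks) held 35.7 and 92.2 CPM of Hdac1, above their controls, and knockout 89 (constitutive 2 weeks) held 70.1 CPM of Hdac2, within the range of its controls. As a group, constitutive knockouts at P0 had no lower mean of either gene than their controls. Hdac2 averaged 150.8 CPM against 143.7 CPM, and Hdac1 18.3 CPM against 12.4 CPM. The count table does not say which exons were deleted, so these levels check the labels in part. Summed CPM of 12 homeostatic microglia genes (such as P2ry12 and Tmem119) was 1527 to 4758 in constitutive knockouts at P0, against 24489 to 28125 in their controls. The 12 include Cx3cr1, the gene whose promoter drives Cre in the knockouts. At 2 weeks these sums were 16458 and 25956 against 68417 to 76508, while 10 neutrophil markers summed to 17717 and 50355 against 113 to 822. In bulk libraries, fewer cells of a type and less RNA per cell cannot be told apart.

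**Figure D1:**
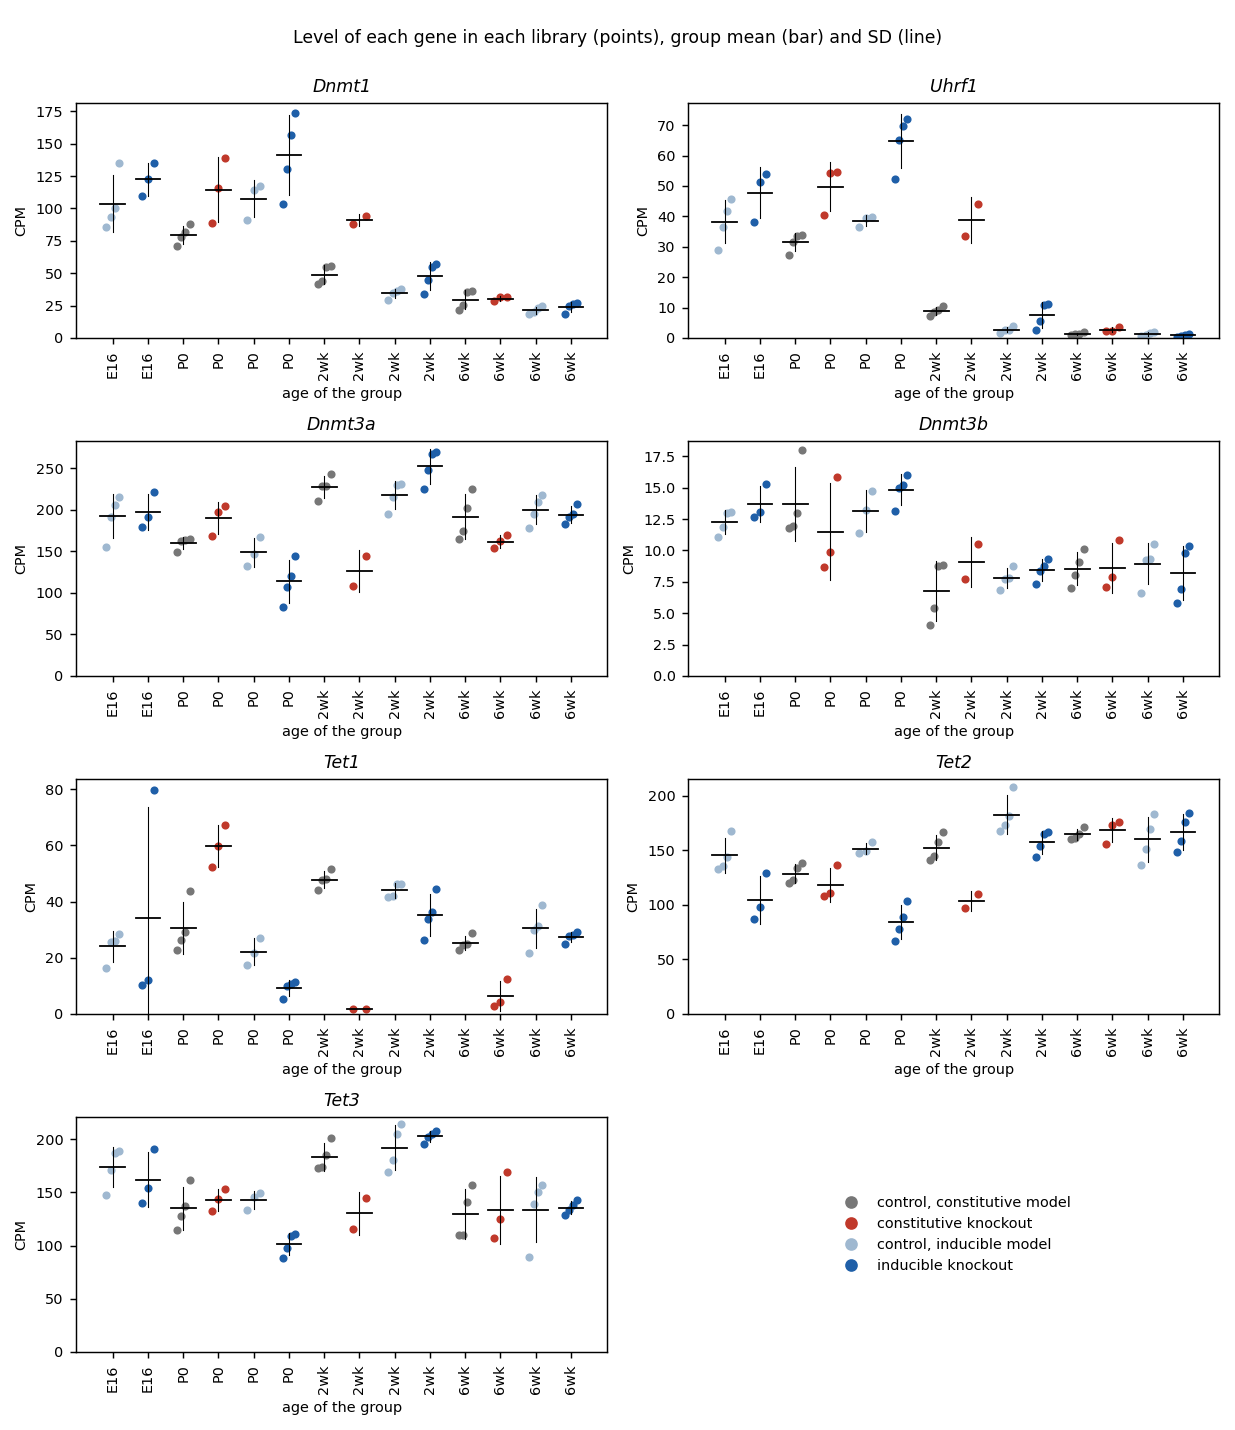
Level of each gene (y axis, CPM from 0) in each of the 50 libraries (points), with the group mean (bar) and SD (line), for the 14 groups ordered by age on the x axis. Dnmt1 and Uhrf1 are high at E16 and P0 and low at 6 weeks, and Tet1 is lowest in the constitutive knockouts at 2 weeks, at 1.83 and 1.73 CPM.

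In microglia without Cre, the set of genes changed its make-up between birth and 2 weeks. Levels of different genes are compared here per length, as CPM per kilobase of the deposited gene length (mean ± SD). At P0 in the inducible-model controls (n = 3) Dnmt1 led at 17.1 ± 2.2 CPM per kilobase. Uhrf1 (9.07 ± 0.45), Tet2 (8.99 ± 0.31), Dnmt3a (8.92 ± 1.1) and Tet3 (8.55 ± 0.51) followed close together, with ranges that overlap. Dnmt3b (2.57 ± 0.33) and Tet1 (1.5 ± 0.33) were lowest, and their ranges were apart. At 6 weeks (n = 4) Dnmt3a led at 12 ± 1.0 CPM per kilobase, followed by Tet2 at 9.49 ± 1.2, Tet3 at 8.02 ± 1.8 and Dnmt1 at 3.38 ± 0.45. Tet1 (2.07 ± 0.47) and Dnmt3b (1.75 ± 0.32) came next, and Uhrf1 was last at 0.319 ± 0.15. Among neighbours in this order, Dnmt3a and Tet2, Tet2 and Tet3, and Tet1 and Dnmt3b overlapped in range, and the others did not. The constitutive-model controls had Dnmt1 first at P0 (12.7 ± 1.1, n = 4) and Dnmt3a first at 6 weeks (11.5 ± 1.6, n = 4).

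**Figure D2:**
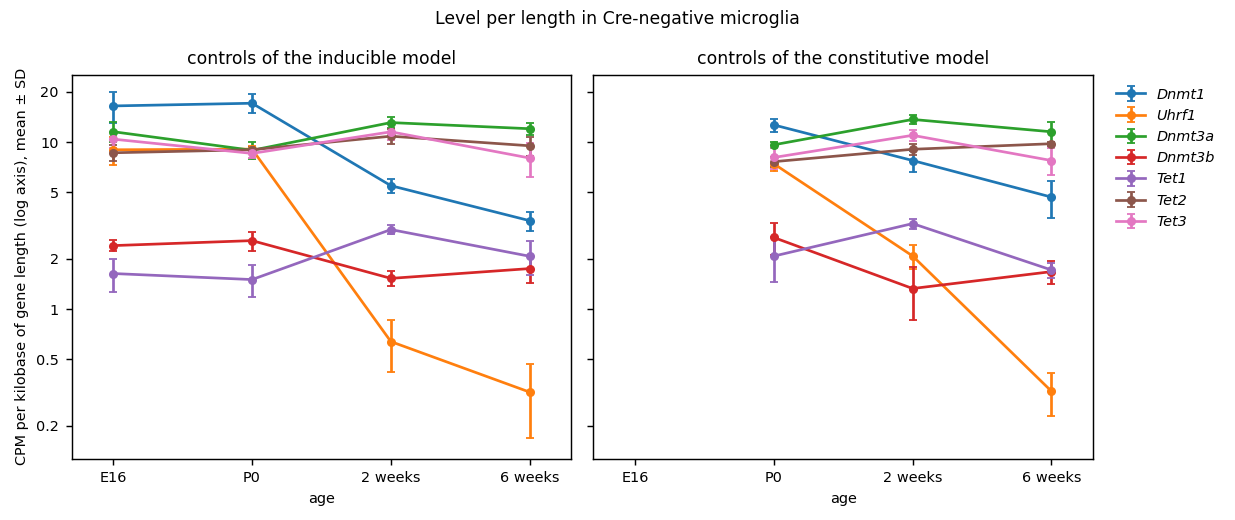
CPM per kilobase of gene length (log axis, mean ± SD) against age for the 7 genes in Cre-negative microglia of the inducible model (left) and the constitutive model (right). Dnmt1 goes from first to below Dnmt3a, Tet2 and Tet3, and Uhrf1 falls to 0.319 and 0.323 CPM per kilobase at 6 weeks.

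From birth to 2 weeks all 7 genes passed the test (edgeR, adjusted p under 0.05) in both sets of controls, where 54.7% of genes tested passed in the inducible model and 63.3% in the constitutive model. A share so high among all genes means that being called sets the members little apart from other genes. The members split by direction. Uhrf1, the reader of half-methylated sites, went from 39.5, 36.4 and 39.9 CPM at P0 to 2.5, 1.72, 2.71 and 3.96 CPM at 2 weeks in the inducible-model controls. It fell by 3.60 ± 0.24 on the log2 scale (± is the standard error of the fitted change; adjusted p = 3.3e-07). In the constitutive-model controls it went from 27.4 to 34.0 CPM down to 7.07 to 10.6 CPM and fell by 1.54 ± 0.17. Dnmt1 fell by 1.42 ± 0.13 (from 91.4 to 117 CPM down to 29.5 to 37.7 CPM) and by 0.42 ± 0.12 (from 71.2 to 87.8 down to 41.3 to 55.3 CPM). No library at 2 weeks reached the lowest P0 library for either gene.

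Dnmt3b, the less abundant de novo enzyme, fell by 0.54 ± 0.21 in the inducible-model controls and by 0.72 ± 0.27 in the constitutive-model controls. Both calls sat close to the threshold (adjusted p = 0.0459 and 0.0288) and were lost without some single libraries. Dnmt3a moved the other way and rose by 0.77 ± 0.11 and 0.80 ± 0.08, from 149.1 to 164.7 CPM at P0 up to 209.9 to 242 CPM at 2 weeks in the constitutive-model controls. All 3 erasers rose with it. Tet1 rose by 1.21 ± 0.15 and 0.95 ± 0.16, Tet2 by 0.48 ± 0.10 and 0.54 ± 0.09, and Tet3 by 0.65 ± 0.11 and 0.73 ± 0.10. Scaling by library totals alone kept all 7 directions in both models. Neuron markers, which summed to 393 to 1759 CPM in the P0 controls, were at 2.34 to 7.57 CPM in the 2-week controls, and homeostatic microglia genes rose (11 of 12 and 12 of 12 called). The part of this change in cell content in the members' changes was not tested.

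From 2 to 6 weeks Dnmt1 fell further in both sets of controls. Of the 7 members, 3 were called in the inducible-model controls (17.1% of all genes tested) and 4 in the constitutive-model controls (17.7%), all of them falls. Dnmt1 fell by 0.77 ± 0.13 and 0.76 ± 0.16, Tet1 by 0.60 ± 0.15 and 0.96 ± 0.11, and Tet3 by 0.59 ± 0.15 and 0.54 ± 0.11. Uhrf1 fell by 2.71 ± 0.26 in the constitutive-model controls, to 1.19, 1.22, 1.13 and 1.96 CPM. In the inducible-model controls it differed by -1.07 ± 0.40 (adjusted p = 0.0769), from a lower start at 2 weeks. These Uhrf1 levels rest on few reads, 13 to 49 counts a library. Neutrophil markers rose over the same step in the inducible-model controls (7 of 8 tested rose and 1 fell), from sums of 135 to 221 CPM to 791 to 1150 CPM. None of 8 was called in the constitutive-model controls, with sums of 113 to 822 CPM and 395 to 674 CPM. Their part in the members' changes was not tested. Between E16 and P0 no member was called in the inducible-model controls, where 10 of 17251 genes (0.058%) passed, 1875 had an unadjusted p under 0.05 and DESeq2 called 427. The largest member difference there was -0.36 ± 0.13 for Dnmt3a.

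Dnmt1 and Uhrf1 followed the genes of DNA replication and of mitosis across the series. Over the 14 group means of log2(CPM + 0.5), Dnmt1 and Uhrf1 correlated with each other at r = 0.989, and with the summed level of 25 replication genes at r = 0.985 and 0.990. These are descriptions over 14 groups that share ages, controls and library kit. The 3 genes of 15303 most like Uhrf1 were Mcm6 (r = 0.996), a subunit of the replicative helicase, Chaf1a (r = 0.995), a subunit of the factor that loads histones onto new DNA, and Prim1 (r = 0.995), the catalytic subunit of primase. Those most like Dnmt1 were Ncapd2 (r = 0.993), a condensin subunit, Tacc3 (r = 0.992), a spindle protein, and Fam83d (r = 0.990). Dnmt3b had r = 0.812 with the replication sum, Dnmt3a -0.571, Tet1 -0.235, Tet2 -0.829 and Tet3 -0.209. For Dnmt3b, r was 0.878 with the neuron sum and 0.699 with the mitosis sum. The genes most like the other members were Bicra, Cdk13 and 5930403N24Rik for Dnmt3a (r = 0.936 to 0.974), and Gm16286, Vmp1 and Mt1 for Dnmt3b (0.954 to 0.973). For the erasers they were Fam135a, Scamp1 and Igf2bp2 for Tet1 (0.952 to 0.975), Ift172, Plxnb3 and Gm26836 for Tet2 (0.932 to 0.949), and Fbrs, Brd1 and Rsf1 for Tet3 (0.864 to 0.877).

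**Figure D3:**
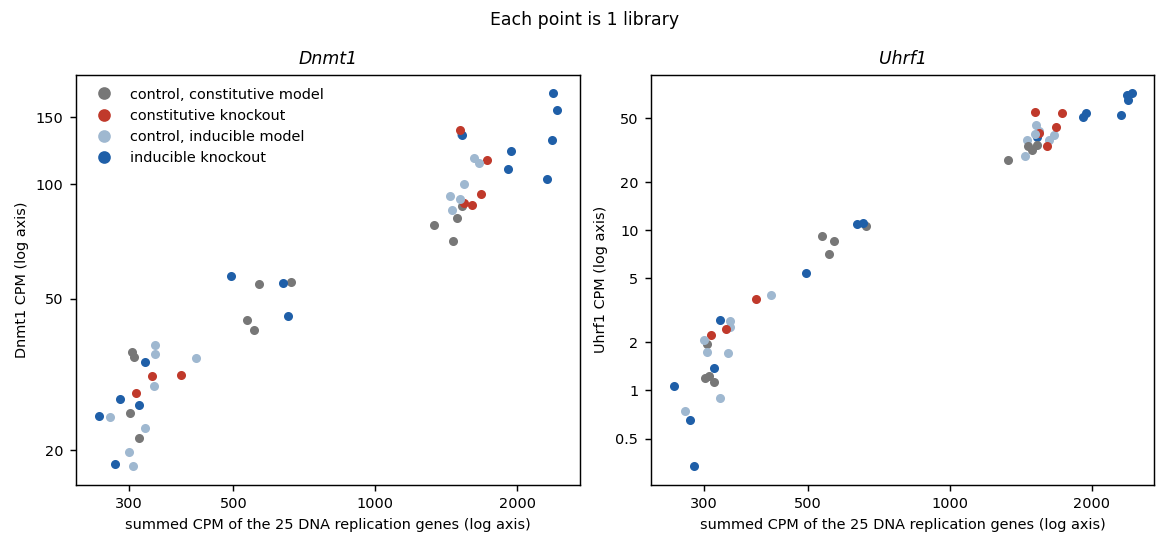
CPM of Dnmt1 (left) and Uhrf1 (right) against the summed CPM of 25 DNA replication genes, both axes on a log scale, each point 1 of 50 libraries. Constitutive knockouts at 2 weeks, with sums of 1606 and 1676, lie among the E16 and P0 libraries, and the other 2-week and 6-week libraries lie between 259 and 663.

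Since Dnmt1 and Uhrf1 moved together with replication and mitosis genes, promoters were searched for E2F motifs, which mark many genes of the S phase. Promoter sequences are from RefSeq (GRCm38.p6), 250 bases before to 50 after each annotated start, 32851 in all and 12 for the 7 members. The motifs TTTCGCGC, TTTGGCGC and GGCGGGAA were searched on both strands, and none of the 3 is part of another. They occur in 0.323%, 0.514% and 2.19% of all promoters, and at least 1 of them in 2.96%. Among the members only Dnmt1 and Uhrf1 held one, in 3 of the 12 promoters. Of the 20 replication genes in the RefSeq table, 12 held one in at least 1 of their promoters. That count is by gene, and a gene can have several promoters, so it cannot be set directly against the 2.96% of promoters. The windows below show the motif in capitals, 5′ to 3′ on the strand of the gene, because these are the matches that the 2 genes of maintenance methylation share with replication genes.
Dnmt1, chr9:20952824-20952853, minus strand, 219 bases upstream of a start: ggtttccgcgcGCGCGAAAaagccggggtc
Dnmt1, chr9:20952574-20952603, minus strand, 33 bases downstream of the same start: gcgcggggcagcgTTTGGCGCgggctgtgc
Uhrf1, chr17:56303278-56303307, plus strand, 48 bases upstream of a start: tgctttctcgcTTCCCGCCacagcgccagc
Uhrf1, chr17:56304117-56304146, plus strand, 185 bases upstream of another start: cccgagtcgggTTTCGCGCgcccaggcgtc
The first and the third window hold the motif on the opposite strand, as GCGCGAAA and TTCCCGCC. A match is a description of the letters, and binding was not measured.

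The 7 knockout comparisons set Cre carriers, labelled as Hdac1 and Hdac2 knockouts, against controls at each age. Constitutive knockouts at 2 weeks changed most. Of the 7 members 6 passed the test, with 42.1% of all genes tested passing there, and these 6 were called under every alternative tried, including without each single library. Maintenance genes rose, and Dnmt3a and all 3 erasers fell.

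**Figure D4:**
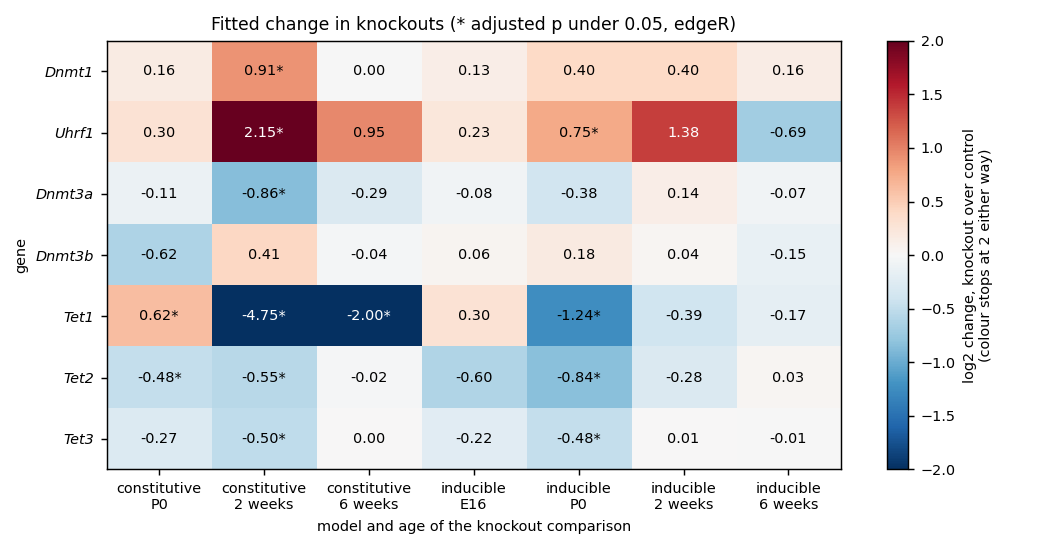
Fitted log2 change of each gene (rows) in knockouts over controls of the same model and age (columns), with calls marked by an asterisk and the colour scale stopping at 2 either way. The constitutive comparison at 2 weeks holds 6 calls, the inducible comparison at P0 4, and 3 comparisons none.

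Tet1 changed most in that comparison. Controls at 2 weeks held 47.8, 44.0, 47.8 and 51.7 CPM, and the knockouts 1.83 and 1.73 CPM, from 32 and 39 counts. Tet1 fell by 4.75 ± 0.20 on the log2 scale, 26.8-fold (adjusted p = 6.4e-07). The ranges lay far apart, and leaving out either knockout kept the call. Of 12 homeostatic microglia genes 11 fell in these libraries, and the median of the 12 was -1.67. Neuron markers were low in both groups, at 3.36 to 4.69 CPM in the knockouts and 2.34 to 4.47 CPM in the controls. Neutrophil markers (10 of 10 rose, median 6.50) and monocyte markers (1652 and 4093 against 20.3 to 79.0 CPM) were high in the knockouts. The part of these cells in the Tet1 difference was not tested.

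Uhrf1 was 33.6 and 44.2 CPM in the 2-week constitutive knockouts and 7.07, 8.58, 9.23 and 10.6 CPM in their controls. It rose by 2.15 ± 0.22, 4.44-fold (adjusted p = 7.3e-05). Dnmt1 was 88.1 and 94.3 CPM against 41.3, 54.7, 44.0 and 55.3 CPM and rose by 0.91 ± 0.16 (adjusted p = 0.00142). Both reached the levels of control libraries at P0, which held 27.4 to 39.9 CPM of Uhrf1 and 71.2 to 117 CPM of Dnmt1. All 25 replication genes and all 20 mitosis genes of the fixed lists rose in the same libraries, with medians of 1.64 and 2.47 against 0.00 over all genes.

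Dnmt3a, the main de novo enzyme of these cells per length, was 144.5 and 108.6 CPM in the 2-week constitutive knockouts against 242, 228, 209.9 and 228 CPM in controls. It fell by 0.86 ± 0.12 (adjusted p = 0.00042), and the ranges did not overlap. Dnmt3b was 10.5 and 7.70 CPM against 4.08 to 8.87 CPM, overlapped and was not called (0.41 ± 0.33, adjusted p = 0.358). Tet2 fell by 0.55 ± 0.14, from 141.7 to 166.6 CPM in controls to 96.8 and 110.2 CPM. Tet3 fell by 0.50 ± 0.12, from 172.7 to 200.9 CPM to 144.5 and 115.8 CPM. Neither gene overlapped between groups. Per library, Dnmt1 over Dnmt3a (each per length) was 0.450 to 0.640 in controls and 1.61 and 2.29 in knockouts.

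Among genes that act with the members, 6 of 13 tested companions and modulators were called in the 2-week constitutive knockouts. Hells, a chromatin remodeller needed for methylation of repeats, rose by 1.93 ± 0.21. Zfp57, which binds methylated imprinted regions, fell by 4.33 ± 0.46, from 4.21 to 5.85 CPM to 0.177 and 0.343 CPM. Cxxc5, which binds unmethylated CpG, fell by 1.34 ± 0.18, and Setdb1, a histone H3 lysine methyltransferase, by 0.67 ± 0.14. Of 13 base excision and demethylation genes 7 rose and 1 fell: Neil3, a DNA glycosylase, rose by 2.06 ± 0.20, Gadd45a by 2.40 ± 0.33 and Ung, the uracil glycosylase, by 2.18 ± 0.34. The methyl-CpG reader Mbd2 rose by 1.65 ± 0.20. Of 15 genes that supply methyl groups or 2-oxoglutarate 6 rose and 2 fell, among them Idh1, which makes 2-oxoglutarate (0.98 ± 0.12), and Shmt2, which feeds the folate cycle (1.01 ± 0.20). Of 21 germline genes whose promoters are known to be silenced by methylation, 5 were measured well enough to test and none was called, with 42.1% of genes called.

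At 6 weeks Tet1 was the only member called in constitutive knockouts, where 12% of genes tested passed. Controls held 22.9, 28.9, 24.4 and 24.8 CPM and the 3 knockouts held 2.71, 4.13 (knockout 380) and 12.5 CPM. All 3 lay below every control and differed widely among themselves. Tet1 fell by 2.00 ± 0.45 (adjusted p = 0.0221), and the call was lost without knockout 380 (-1.75, adjusted p = 0.0726), without the control at 28.9, 24.4 or 24.8 CPM (adjusted p = 0.0553 to 0.0644) and without the filter on low counts (-2.01, adjusted p = 0.116). In the same order these 3 knockouts held 48958, 36768 and 52074 CPM of homeostatic microglia genes, against 64948 to 68684 CPM in controls, and 2781, 4818 and 2158 CPM of neutrophil markers, against 395 to 674 CPM. The knockout with the highest Tet1 had the highest homeostatic and the lowest neutrophil sum of the 3, but the one with the lowest Tet1 lay between the others in both sums. The part of these markers was not tested.

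The other 6 members were not called at 6 weeks in the constitutive model. Uhrf1 was 3.70, 2.23 and 2.41 CPM in knockouts against 1.13 to 1.96 CPM in controls, without overlap, but the difference of 0.95 ± 0.38 did not pass (adjusted p = 0.144). Dnmt3a differed by -0.29 ± 0.12 (adjusted p = 0.153) and overlapped by range. Dnmt1, Dnmt3b, Tet2 and Tet3 lay between -0.04 and 0.00 on the log2 scale, with standard errors of 0.10 to 0.23. Zfp57 fell by 3.54 ± 0.83 at this age as well, to 0 to 0.781 CPM from 1.83 to 5.76 CPM, Cxxc5 fell by 0.49 ± 0.10 and Mbd2 rose by 0.62 ± 0.13. Of 4 germline genes tested 1, Tex11, was called. It had 0 counts in all 3 knockouts and 9 to 102 counts in the controls, and in other control groups single libraries also had none.

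At P0 the constitutive knockouts went the other way for Tet1. Knockouts 68, 73 and 76 held 67.2, 59.8 and 52.3 CPM, and controls 69, 70, 71 and 74 held 22.9, 43.7, 26.4 and 29.2 CPM. Tet1 rose by 0.62 ± 0.19 (adjusted p = 0.0241) and Tet2 fell by 0.48 ± 0.13 (adjusted p = 0.0122), 2 calls of 7 where 41.6% of all genes tested passed. All 10 neuron markers, 8 of 8 astrocyte and radial glia markers and 10 of 10 neutrophil markers rose in these knockouts, the neuron markers to sums of 2886, 3589 and 3177 CPM. Controls had sums of 802, 1759, 840 and 1003 CPM in the order above, so that control 70 was highest for both Tet1 and neuron markers.

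Both calls at P0 depend on the fit. The Tet1 call was lost without knockout 68 or 73 or control 69, 71 or 74 (adjusted p = 0.0569 to 0.0963) and when all 14 groups shared a fit (adjusted p = 0.088). Tet2 was lost without knockout 68 or 73 (adjusted p = 0.0518 and 0.0584). In CPM it was 108.1, 110.6 and 136.2 in knockouts and 119.8 to 138.3 in controls, which overlap. With library totals in place of TMM scaling, Tet2 differed by -0.12 (adjusted p = 0.429), while Dnmt1 (0.52, adjusted p = 0.0173) and Uhrf1 (0.66, adjusted p = 0.00673) were called as higher. That setting moved the median of all genes from 0.04 to 0.40, and the fit reported here gave 0.16 ± 0.15 for Dnmt1 and 0.30 ± 0.16 for Uhrf1. In CPM, Dnmt1 was 115.9, 139.0 and 89.05 in knockouts against 71.2 to 87.85 in controls, and Uhrf1 54.1, 54.7 and 40.5 against 27.4 to 34.0. Dnmt3a (-0.11 ± 0.11), Dnmt3b (-0.62 ± 0.26, adjusted p = 0.0777) and Tet3 (-0.27 ± 0.13) were not called, and the sign of Dnmt3a and Tet3 turned with library totals (0.25 and 0.09). Of 25 replication genes 6 were called, all as lower under TMM scaling. The summed CPM of the 25 was 1724, 1513 and 1542 in knockouts against 1330 to 1527 in controls, with knockout 73 within the control range. These genes were not refitted with library totals, so the part of the scaling in their direction was not tested. Zfp57 rose by 0.95 ± 0.18, as Tet1 did, and Setdb1 and Cxxc5 fell by 0.72 ± 0.14 and 0.62 ± 0.13.

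In inducible knockouts at P0, born after the dams received tamoxifen, all 3 erasers fell and Uhrf1 rose, 4 calls of 7 where 10.4% of genes tested passed. Tet1 was 10.5, 11.3, 10.1 and 5.22 CPM in knockouts against 17.5, 21.8 and 27.1 CPM in controls and fell by 1.24 ± 0.26 (adjusted p = 0.0136). Tet2 was 89.4, 103.4, 66.7 and 77.6 CPM against 147.9, 157.5 and 149.5 CPM and fell by 0.84 ± 0.15 (adjusted p = 0.00599). Tet3 was 109.0, 111.0, 88.8 and 97.7 CPM against 133.2, 149.6 and 145.3 CPM and fell by 0.48 ± 0.12 (adjusted p = 0.0328). No knockout library reached the lowest control for any of the 3. Leaving out most single libraries took the Tet3 call past the threshold (adjusted p up to 0.122), and Tet1 was lost without control 56 (adjusted p = 0.054). Control 56, at 27.1 CPM of Tet1, differed from controls 54 and 55 in marker sums. Monocyte markers summed to 1095 CPM against 4861 and 5105 CPM, and neutrophil markers to 1046 against 3010 and 3686 CPM. Astrocyte and radial glia markers summed to 849 against 419 and 421 CPM. The part of these markers in the Tet1 difference was not tested.

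Uhrf1 in the same comparison was 71.8, 65.2, 52.2 and 69.7 CPM against 39.5, 36.4 and 39.9 CPM and rose by 0.75 ± 0.16 (adjusted p = 0.0134). Its call was lost without control 55 (adjusted p = 0.0709) and with all 14 groups in the fit (adjusted p = 0.145). Dnmt1 (0.40 ± 0.18, adjusted p = 0.179), Dnmt3a (-0.38 ± 0.17, adjusted p = 0.172) and Dnmt3b (0.18 ± 0.21) were not called, though Dnmt3a passed with all 14 groups in the fit (adjusted p = 0.0048). Of the replication genes 11 of 25 rose, and Cdca7, which works with Hells, rose by 0.84 ± 0.17. Of 15 supply genes 5 rose, among them Idh3a (0.89 ± 0.14), Shmt2 (0.79 ± 0.14) and Idh2 (0.87 ± 0.18), and 1 fell. Neuron markers were not called (0 of 10, median -0.43), with sums of 228 to 466 CPM in knockouts and 393 to 611 CPM in controls. Homeostatic microglia genes fell in 8 of 12.

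At E16, 3 days after tamoxifen, no gene of 17594 passed (0%), with 2306 at an unadjusted p under 0.05 and 681 called by DESeq2. Tet1 turned on 1 library. Controls held 16.2, 25.9, 28.4 and 25.6 CPM, knockouts 3 and 8 held 12.2 and 10.4 CPM, and the library labelled knockout 1 held 79.6 CPM. With it, Tet1 differed by 0.30 ± 0.64. Without it, Tet1 was lower by 1.12 on the log2 scale (-1.12, adjusted p = 0.045). Tet2 was 129.5, 98.2 and 86.8 CPM in knockouts 1, 3 and 8 against 133.2 to 168.1 CPM in controls, so that all 3 knockouts lay below every control. Its difference of -0.60 ± 0.15 did not pass (adjusted p = 0.164), but passed without knockout 1 (-0.69, adjusted p = 0.0348) and in DESeq2 (-0.64, adjusted p = 0.0108). The other 5 members lay between -0.22 and 0.23.

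**Figure D5:**
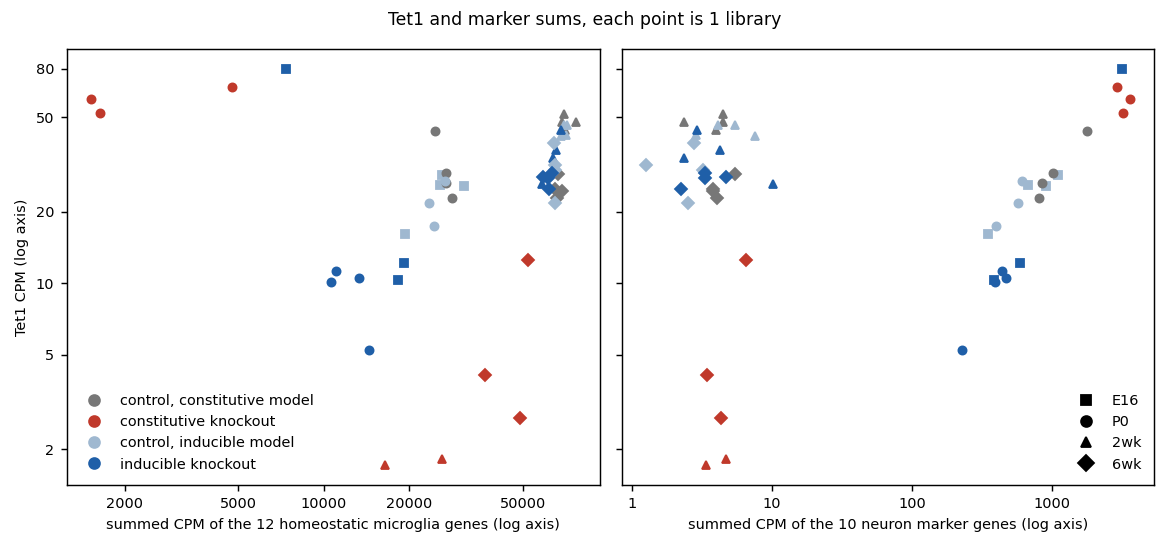
CPM of Tet1 (y axis, log scale) in each of the 50 libraries against the summed CPM of 12 homeostatic microglia genes (left) and of 10 neuron marker genes (right), both on log axes, with shape for age and colour for group. At E16 and P0 the libraries with the most Tet1, up to 79.6 CPM, are those with the highest neuron sums. At lower sums, inducible knockouts lie below controls with similar sums. At 2 and 6 weeks, with neuron sums of 1.26 to 10.2 CPM, the constitutive knockouts lie below all other libraries of those ages.

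Across the E16 and P0 libraries, the highest Tet1 levels lay in the libraries with the highest neuron sums, but the order did not hold throughout. The 4 libraries above 50 CPM of Tet1 had neuron sums of 2886 to 3589 CPM, and the next, control 70 at 43.7 CPM, had 1759 CPM. The lowest, inducible knockout 57 at 5.22 CPM, had the lowest neuron sum at 228 CPM. At similar neuron sums, inducible knockouts held less Tet1 than controls. E16 knockouts 3 and 8 (sums of 586 and 383 CPM) lay below every E16 control in Tet1, although control 2 had a sum of 350 CPM. Inducible P0 knockouts 48 and 49 (466 and 439 CPM) lay below every control of that group, although control 54 had a sum of 393 CPM. Among the 4 libraries with the most Tet1, constitutive knockout 73 had the largest neuron sum but not the highest Tet1. The same 4 libraries were also highest for astrocyte and radial glia markers (1724 to 3337 CPM) and for erythroid markers (2188 to 13344 CPM). The part of any of these markers in the Tet1 differences at E16 and P0 was not tested. At 2 and 6 weeks, Tet1 in controls was 21.8 to 51.7 CPM with neuron markers at 1.26 to 7.57 CPM.

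At 2 weeks no member passed in the inducible knockouts, with 2.25% of genes tested called, and 4 members (Uhrf1, Tet2, Dnmt1 and Tet1) had an unadjusted p under 0.05. Uhrf1 was 5.44, 11.1, 10.9 and 2.76 CPM in knockouts 10, 13, 16 and 6 against 2.5, 1.72, 2.71 and 3.96 CPM in controls. The difference of 1.38 ± 0.38 did not pass (adjusted p = 0.0852). Knockout 6 lay within the controls, and its replication sum of 325 CPM was below all of them, while the other 3 knockouts were at 495 to 653 CPM and controls at 339 to 416 CPM. Hdac2 in knockout 6 was 26.4 CPM, as low as in the other 3 (29.4 to 32.2 CPM). Without knockout 6, Uhrf1 (1.64, adjusted p = 0.00313), Dnmt1 (adjusted p = 0.0175), Tet1 (adjusted p = 0.016) and Tet2 (adjusted p = 0.0425) passed. Uhrf1 was also called by DESeq2 (adjusted p = 0.00804), without the filter on low counts (adjusted p = 2.3e-05) and with all 14 groups in the fit (adjusted p = 0.02).

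Tet1 in those 2-week inducible knockouts was 36.3, 33.6, 26.1 and 44.3 CPM against 41.7 to 46.3 CPM, with knockout 6 again within the controls (-0.39 ± 0.14, adjusted p = 0.178). Tet2 at 144.0 to 166.5 CPM lay below all controls at 168.0 to 208.3 CPM (-0.28 ± 0.09, adjusted p = 0.118). Dnmt3a, Dnmt3b and Tet3 differed by 0.14 ± 0.08, 0.04 ± 0.18 and 0.01 ± 0.09. Among the companions Zfp57 fell by 1.82 ± 0.35 and Hells rose by 1.10 ± 0.27. At 6 weeks no member of the inducible model passed, where 0.0633% of genes did. The members lay between -0.17 and 0.16, apart from Uhrf1 at -0.69 ± 0.50 on 10 to 47 counts a library, and the ranges of all 7 overlapped. Hdac2 was still lower in these knockouts by 1.28 ± 0.12 (-1.28).

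Tests of the difference between models were made at each age, with each model keeping its own controls. At P0 Tet1 was the 1 member whose effect differed (1.89 ± 0.34, constitutive minus inducible, adjusted p = 0.00115), where 30.9% of genes passed. At 2 weeks 3 members differed, with 31.2% of genes passing: Tet1 (-4.36 ± 0.27), Dnmt3a (-1.01 ± 0.14) and Tet3 (-0.52 ± 0.14). The Uhrf1 effects of 2.15 and 1.38 at that age did not differ by the test (0.75 ± 0.53, adjusted p = 0.312). At 6 weeks Tet1 differed (-1.82 ± 0.45, adjusted p = 0.0256, 4.95% of genes passing), a call lost without knockout 380 (adjusted p = 0.082), without the constitutive control at 28.9 CPM, inducible control 5 or 11 or inducible knockout 12 (adjusted p = 0.0501 to 0.0529), and without the filter on low counts (adjusted p = 0.0989).

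Tests between neighbouring ages were made within each model. From P0 to 2 weeks the constitutive effect changed for 4 members, with 30.8% of genes passing: Tet1 by -5.43 ± 0.31, Uhrf1 by 1.79 ± 0.28, Dnmt3a by -0.81 ± 0.16 and Dnmt1 by 0.68 ± 0.23. The Dnmt1 call was lost with library totals, RLE scaling, DESeq2 and all 14 groups in the fit (0.38 to 0.53). From 2 to 6 weeks it changed for 5 members, with 15.8% of genes passing: Tet1 by 2.73 ± 0.57, Uhrf1 by -1.22 ± 0.39, Dnmt1 by -0.92 ± 0.26, Dnmt3a by 0.55 ± 0.16 and Tet2 by 0.53 ± 0.16. For the first 4 the sign was opposite to that of the step before. Both steps contain the same 2-week effect, which rests on 2 knockouts and enters them with opposite signs. The steps are therefore not independent, and this reversal was not tested. Without knockout 89 or without knockout 380, 1 of these 5 calls was left. In the inducible model no gene passed from E16 to P0 (0% of 18916, 983 at an unadjusted p under 0.05, 0 in DESeq2). From P0 to 2 weeks it changed for Tet2 (0.62 ± 0.16) and Tet3 (0.55 ± 0.13), with 4.38% of genes passing. From 2 to 6 weeks no gene passed (0% of 15043, 1029 at an unadjusted p under 0.05, 6 in DESeq2), and the Uhrf1 change was -2.09 ± 0.65 (adjusted p = 0.574).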

How the data were processed

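The authors deposited a table of integer counts for 50 libraries, whose column headers name model, Cre status, age and animal. The authors' deposited CPM and log2 tables were not used. Per the submitters' processing notes, CASAVA 1.8.2, STAR 2.5.2b, featureCounts 1.5.1 of Subread, limma 3.28.21 and GRCm38 were used. The annotation release and strand setting are not given in the sources used here. RNA was amplified with the SMARTer kit and tagmented with Nextera XT, per the labels' protocols, so counts are not independent molecules. Symbols came from GENCODE on GRCm38, and genes without a match held 0.058% of counts. Replicates of a group differed by more than counting error (chi-square per gene at least 9.27).

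CPM is the count over the library total, scaled to a common total. The groups of a comparison were fitted alone with edgeR 4.0.16 (R 4.3.3): filterByExpr, TMM scaling, glmQLFit with robust=TRUE, and Benjamini-Hochberg adjustment over all genes tested. "Rose", "fell" and "called" mean an adjusted p under 0.05. The procedure was tested on simulated counts for some of the knockout comparisons, with the same dispersion for all genes. That simulation did not copy the spread of the real libraries, and interaction tests were not simulated. Alternatives were RLE scaling, no filter, DESeq2 1.42.0, all 14 groups in 1 fit, leaving out each library, and scaling by library totals, which was chosen after seeing the data. All members were named. From each list up to 4 called genes with the smallest adjusted p could be named, and for each member the 3 genes of most similar pattern (mean of at least 1 CPM). Members and gene lists were chosen with earlier results of these data known.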

Additional observations from a re-analysis of the deposited data

Results flagged for a closer look

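In constitutive-model controls at P0, library 69 had 149.1 CPM of Dnmt3a, lower than the other 3 at 162.8 to 164.7 CPM by more than their spread. In constitutive-model controls at 6 weeks, library 400 had 1.96 CPM of Uhrf1, above the other 3 at 1.13 to 1.22 CPM. These were 2 of 63 sets looked at, each of them 1 member in 1 of the 9 groups of 4 libraries, and about 1 in 20 would stand out by chance.

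The knockout effect differed between models by the interaction test (edgeR, adjusted p under 0.05) for Tet1 at P0 (1.89, constitutive minus inducible, on the log2 scale), at 2 weeks (-4.36) and at 6 weeks (-1.82). It also differed at 2 weeks for Dnmt3a (-1.01) and Tet3 (-0.52). Within the constitutive model, the effect at 2 weeks minus that at P0 was 0.68 for Dnmt1, -0.81 for Dnmt3a, -5.43 for Tet1 and 1.79 for Uhrf1. The effect at 6 weeks minus that at 2 weeks was -0.92 for Dnmt1, 0.55 for Dnmt3a, 2.73 for Tet1, 0.53 for Tet2 and -1.22 for Uhrf1. Within the inducible model, the effect at 2 weeks minus that at P0 was 0.62 for Tet2 and 0.55 for Tet3. The part of the cell-type markers given beside these results was not tested.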

How the results depend on the processing

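Of 2114 values recomputed for the members, 98 lost and 37 gained a call in the same direction. A further 67 values with no call in either fit changed sign, 7 of them by more than their standard error, such as Dnmt3a and Tet3 at constitutive P0 with library totals. With a call, 1 changed sign: Tet1 at E16, at -1.12 without knockout 1 and up to 0.58 without other libraries. No paired analysis was possible because the numbers name different animals and compared groups share at most 1. The number of members called was 0 with all 14 groups in the fit at constitutive P0, 0 to 3 leaving out single libraries. At constitutive 6 weeks it was 0 without the filter and 0 to 1 leaving out libraries. At E16 it was 1 in DESeq2 and with all groups, and 0 to 2. At inducible P0 it was 2 to 4 leaving out libraries, and at inducible 2 weeks 3 without the filter, 1 in DESeq2 and with all groups, and 0 to 4. Between models it was, at P0, 2 with RLE scaling and DESeq2, 4 with library totals, 3 with all groups, and 1 to 2 leaving out libraries, and at 6 weeks 0 without the filter, and 0 to 1. Between ages it was, from 2 to 6 weeks in the constitutive model, 3 without the filter and with all groups, and 1 to 5, and from P0 to 2 weeks in the inducible model 4 in DESeq2, and 0 to 3. The cause of these changes was not tested.

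Counts over all genes moved by more than 1.5 times at E16 (0; DESeq2 681, all groups 1576, without knockout 1 638), inducible P0 (1823; DESeq2 2894, all groups 2743, without control 55 680), inducible 2 weeks (313; no filter 888, DESeq2 708, all groups 84, leaving out libraries 94 to 938) and inducible 6 weeks (9; 25, 48, 14, and 5 to 18). They also moved for inducible controls at P0 against E16 (10; library totals 6, no filter 56, DESeq2 427, all groups 76, and 3 to 126) and at 6 against 2 weeks (2400; all groups 1525). At constitutive 6 weeks the count was 1731, and 1153 without knockout 380. Differences between effects moved for models at P0 (5946; all groups 3770, without knockout 73 3842), constitutive 6 minus 2 weeks (2534; without knockout 89 1101), inducible 2 weeks minus P0 (785; DESeq2 1600, without control 3 514), and inducible 6 minus 2 weeks (0; no filter 1, DESeq2 6, all groups 1, up to 13 without knockout 6). Library totals moved the share of calls that were higher from 51.4% to 75.9% at constitutive P0, 49.5% to 67.8% at inducible 2 weeks, 40.1% to 26.0% and 42.1% to 25.6% for controls at 2 weeks against P0, 47.5% to 63.2% for inducible controls at 6 against 2 weeks, 45.3% to 71.2% between models at P0, and 70.5% to 55.03% for constitutive 2 weeks minus P0. All groups in the fit moved it from 65.7% to 47.1% at inducible P0 and from 37.2% to 26.9% for constitutive 6 minus 2 weeks. At 2 weeks the constitutive comparison has 2 knockouts, so leaving out 1 assumes that the other varies like the controls. Low Uhrf1 at 6 weeks and Tet1 in constitutive knockouts at 2 and 6 weeks rest on 10 to 49 and 32 to 192 counts a library, which limits their precision.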
